A study of Mus musculus with 22 samples.

Results

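The expression of 10 genes of the epidermal growth factor (EGF) receptor axis was followed across the series: 6 ligands (Areg, Ereg, Hbegf, Tgfa, Btc and Epgn), 3 receptors (Egfr, Erbb2 and Erbb3) and Errfi1, which encodes an intracellular inhibitor of the receptors. The genes were taken by symbol from the deposited expression table, which holds 54514 entries, and all 10 were present. RNA was sequenced from mpkCCD cells, immortalized mouse epithelial cells of the cortical collecting duct (secondary clone 38 of the mpkCCDc11 line), in 22 libraries of 10 groups. Wild-type (WT) cells were sequenced without dDAVP (vehicle, n = 3) and with dDAVP (n = 3), the synthetic vasopressin analogue desmopressin, which acts on the V2 vasopressin receptor. GFP reporter lines C1, C11, C43 and C50 were each split by GFP into negative and positive cells (n = 2 libraries each), and all of these 16 libraries came from cells given dDAVP. By the title of the series, the reporter was used to study the variable expression of Aqp2, the vasopressin-regulated water channel. All cells shared the same culture: 4 days on permeable supports in medium that held 10 ng/mL EGF, insulin, thyroid hormone and serum, and then medium lacking serum and growth factors, with 50 nM dexamethasone in both. Each reporter line is 1 clone, the labels do not state what drives the GFP, and they do not say which dDAVP dose or duration each library had. Nothing in the labels says that replicates were separate cultures, so p-values measure only the spread between these libraries, which may be technical.

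Values are in TPM, a unit scaled for transcript length and to a fixed total per library, and the sequencing depth behind them is unknown. Between 12293 and 14341 genes reached 1 TPM per library. In 10 libraries 17177 to 20250 genes were above 0, and in the other 12 it was 23135 to 31292, with both kinds in 8 of the 10 groups. Both GFP-negative C1 libraries were among those with fewer genes above 0 and both GFP-negative C11 libraries among those with more, so in these groups the number of genes detected and the group cannot be told apart. The library of GFP-negative C50 cells, replicate 1, stood apart: ribosomal protein genes took 8.32% of its TPM against 3.85% to 6.12% elsewhere, and its long transcripts were low relative to short ones (a log2 deviation of -0.89 against -0.21 to 0.57 elsewhere). Results of the members that rest on this library are given with and without it. Of 12 principal cell markers 9 reached a mean of 1 TPM, led by Aqp2 at a mean of 2201 TPM, while Elf5, Tfap2b and Scnn1b did not. The defining intercalated cell genes Slc4a1, Slc26a4 and Foxi1 averaged 0.028, 0.052 and 0.015 TPM. However, Atp6v1b1, Rhcg and Slc4a9 of the intercalated cell list averaged 59.1, 25.8 and 2.35 TPM. Of the proximal tubule list only Lrp2 (mean 7.81 TPM) and of the leukocyte list only Csf1r (mean 13.1 TPM) reached 1 TPM. Each thick limb, fibroblast and endothelial marker averaged under 1 TPM.

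EGF family ligands are made as membrane-anchored precursors and are released by cell-surface proteases of the ADAM family. Areg, Tgfa and Epgn products bind EGFR, while those of Btc, Hbegf and Ereg bind EGFR and also ERBB4. Bound receptors pair with one another. ERBB2 has no known direct ligand and acts as a favoured partner, and ERBB3 has little kinase activity and carries docking sites for phosphoinositide 3-kinase. The ERK cascade downstream induces feedback genes, among them Errfi1. In the collecting duct, EGF is known to oppose the action of vasopressin on water transport.

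Every member of the ligand family carries an EGF-like domain held by cysteine pairs, and this is the part that meets the receptor. The coding stretches below, found by searching the longest open reading frames of the GENCODE M21 transcripts (GRCm38) for the family's cysteine spacing, show it for the ligands whose levels are compared most closely. Each is 108 bases (36 codons), written 5′ to 3′, with its 6 cysteine codons in capitals.
Areg: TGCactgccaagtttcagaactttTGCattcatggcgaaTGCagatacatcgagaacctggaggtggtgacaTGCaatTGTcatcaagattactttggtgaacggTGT
Ereg: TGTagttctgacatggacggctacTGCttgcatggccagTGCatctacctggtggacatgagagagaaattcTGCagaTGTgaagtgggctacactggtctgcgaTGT
Btc: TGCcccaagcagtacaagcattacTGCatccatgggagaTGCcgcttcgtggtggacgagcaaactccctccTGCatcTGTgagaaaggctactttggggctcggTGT
Tgfa: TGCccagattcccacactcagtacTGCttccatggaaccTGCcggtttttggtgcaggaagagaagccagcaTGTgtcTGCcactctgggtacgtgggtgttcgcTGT
The cysteine codons fall at the same positions in each stretch. The search required the 6 cysteines but let the length of some gaps between them vary within narrow limits. Of the 90 bases outside the cysteine codons, Btc and Tgfa shared 56.7%, Areg and Btc 48.9%, Areg and Ereg 45.6%, and Ereg and Tgfa 37.8%.

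Epgn, Ereg, Areg and Btc lie in this order on chromosome 5 in the RefSeq annotation (GRCm38.p6), with only the non-coding genes Gm19610, Gm23092 and Gm19619 listed among them. The 3 non-coding neighbours had median levels of 0.27, 0 and 0 TPM. RefSeq promoter sequences (GRCm38.p6, from 250 bases before to 50 bases after the annotated start) were examined for 7 of the 10 members. Those of Areg and Btc are printed on the gene's strand because these 2 genes were the members that passed the test for dDAVP. Capitals mark the cAMP response element TGACGTCA, its shorter form TGACG on either strand, and the TATA box TATAAA. The Areg window is chr5:91139349-91139648 (plus strand) and the Btc window is chr5:91402945-91403244 (minus strand).
Areg promoter: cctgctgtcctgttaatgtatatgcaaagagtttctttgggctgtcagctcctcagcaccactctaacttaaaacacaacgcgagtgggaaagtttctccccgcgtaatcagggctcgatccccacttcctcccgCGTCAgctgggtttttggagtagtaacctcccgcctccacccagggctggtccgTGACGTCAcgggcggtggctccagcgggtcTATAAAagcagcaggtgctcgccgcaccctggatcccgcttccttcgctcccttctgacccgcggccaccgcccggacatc
Btc promoter: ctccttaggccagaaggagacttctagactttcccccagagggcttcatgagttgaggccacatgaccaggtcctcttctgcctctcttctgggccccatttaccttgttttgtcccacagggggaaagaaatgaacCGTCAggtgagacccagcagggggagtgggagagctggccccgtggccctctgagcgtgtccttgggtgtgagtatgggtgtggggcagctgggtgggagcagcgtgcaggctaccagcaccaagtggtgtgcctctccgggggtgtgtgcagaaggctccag
The Areg window held TGACGTCA with its first base 61 bases before the start, TATAAA at 31 bases before it, and a further CGTCA, the reverse complement of TGACG, at 115 bases before it. The Btc window held only CGTCA, 113 bases before the start, and the AP-1 motif TGANTCA was in neither. On both strands of 32544 RefSeq promoter windows of this length, TGACGTCA was in 1.8%, TGACG (which every TGACGTCA contains) in 20.91%, TATAAA in 13.57% and TGANTCA in 7.79%. One of the Errfi1 windows, chr4:150854820-150855119 (plus strand), also held TGACGTCA, at 51 bases before the start. These are matches of letters only, and no binding was measured.

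On the TPM scale the ligand transcripts were dominated by Hbegf, which encodes heparin-binding EGF-like growth factor. Hbegf ranged from 466.7 to 727.9 TPM over the 22 libraries with a median of 542.3 TPM, and it made up 83.9% to 90.3% of the summed TPM of the 6 ligands. Next by median came Btc (betacellulin) at 39.1 TPM, Tgfa (transforming growth factor alpha) at 22.3 TPM, Areg (amphiregulin) at 13.9 TPM and Ereg (epiregulin) at 4.12 TPM. Epgn (epigen) lay between 0 and 0.35 TPM, was listed at 0 in 10 libraries, and fell below the mean of 1 TPM needed for testing. Among the receptors, Erbb2 led with a median of 111.3 TPM, ahead of Erbb3 at 59.4 TPM and Egfr at 54.0 TPM. Errfi1 had a median of 204.2 TPM. Erbb4, the remaining receptor of the family, did not exceed 0.3 TPM in any library, and the ligand Egf ranged from 0.64 to 2.83 TPM.

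**Figure D1:**
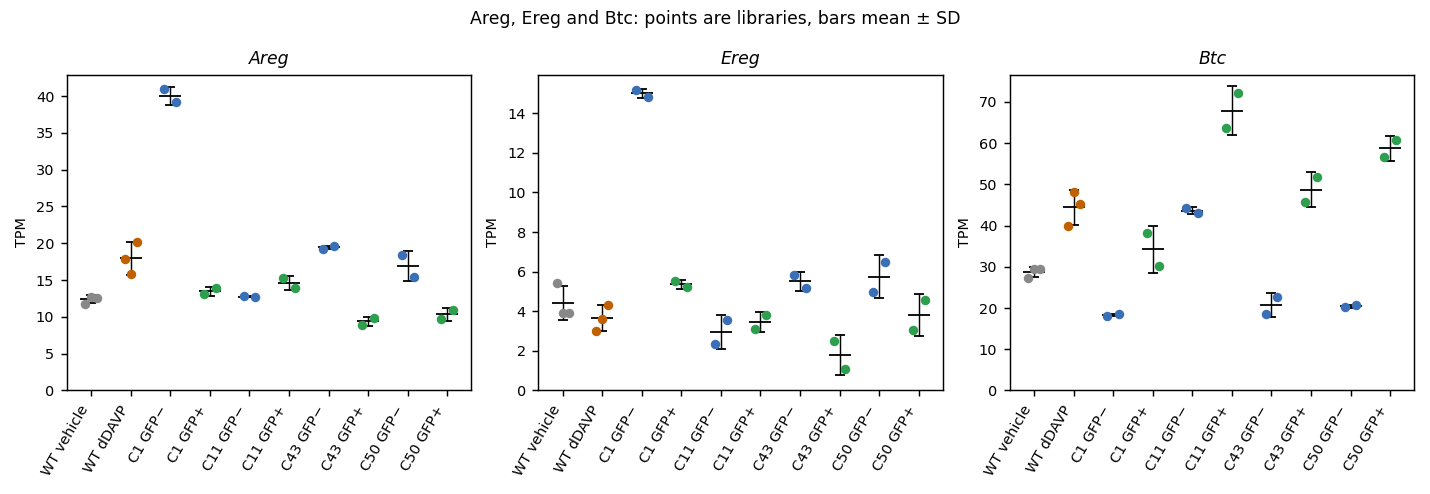
TPM of Areg, Ereg and Btc (y axes, each from 0) in every library of the 10 groups (x axis); points are libraries, horizontal bars are group means and whiskers are SD (n = 3 for WT, n = 2 otherwise). GFP-negative C1 cells are highest for Areg (39.22 and 40.95 TPM) and Ereg and among the lowest for Btc (18.04 and 18.51 TPM).

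In WT cells the transcripts of 2 ligands were higher with dDAVP, Areg by 1.45 times and Btc by 1.54 times in the ratio of mean TPM, while no member was called lower. These were 2 of the 9 members tested, 22.2%, where 8.88% of all 13494 genes tested were called (2.37% higher and 6.51% lower). Tgfa, Hbegf, Ereg, the 3 receptors and Errfi1 were not called. The median change of all genes tested was -0.16 on the log2 scale, so the members' changes are to be read relative to that shift. With the libraries rescaled by median ratios the shift was -0.0012, and 63.7% of the called genes were higher, against 26.7% on the TPM scale.

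Areg was 11.75, 12.74 and 12.63 TPM in the vehicle libraries and 17.82, 15.78 and 20.23 TPM in the dDAVP libraries. All 3 dDAVP libraries lay above all 3 vehicle libraries. The change in log2(TPM + 1) was 0.50 (SE 0.115, limma, Benjamini-Hochberg adjusted p = 0.0431). Btc was 27.34, 29.44 and 29.49 TPM with vehicle and 39.95, 48.18 and 45.12 TPM with dDAVP. Its groups likewise did not overlap, as was so for 35.8% of all genes tested, and the change was 0.61 (SE 0.0951, adjusted p = 0.0131). Areg remained past the threshold when dDAVP replicate 2 was left out (adjusted p = 0.0277) and was lost without any of the other 5 libraries (adjusted p = 0.102 to 0.145). Btc was lost without vehicle replicate 2, vehicle replicate 3 or dDAVP replicate 3 (adjusted p = 0.0508, 0.0523 and 0.0639). Neither change altered sign under any of the alternatives run. In the 4 WT libraries with more genes detected, the changes were 0.51 for Areg (adjusted p = 0.237) and 0.70 for Btc (adjusted p = 0.0901), while the other set held only 1 library per group.

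Tgfa did not pass the threshold, with 37.62, 30.74 and 31.76 TPM with vehicle and 19.94, 26.63 and 22.11 TPM with dDAVP. The 2 groups did not overlap, and the change was -0.53 (SE 0.131, adjusted p = 0.05003). Tgfa passed in 4 of 16 alternatives: a pseudocount of 0.1 (adjusted p = 0.0439), a minimum mean of 5 TPM (0.0344), dDAVP replicate 2 left out (0.0262) and the number of genes detected as a covariate (0.0216). Hbegf was 588.7, 550.1 and 558.6 TPM with vehicle and 479.2, 496.4 and 483.1 TPM with dDAVP, again with separate groups, and its change of -0.22 had an adjusted p of 0.0628 (0.0361 with the number of genes detected as a covariate). Under median-ratio scaling the Hbegf value was -0.05 (adjusted p = 0.684) and that of Tgfa -0.36 (adjusted p = 0.0782). Ereg did not separate: 5.42, 3.93 and 3.9 TPM with vehicle and 3.02, 3.63 and 4.3 TPM with dDAVP (change -0.22, adjusted p = 0.456). Of the 5 ligands tested, the dDAVP libraries lay above the vehicle libraries for Areg and Btc and below them for Tgfa and Hbegf. The last 2 were not called, and 35.8% of all genes tested had no overlap between these groups.

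The receptors and the inhibitor overlapped between vehicle and dDAVP. Egfr averaged 53.0 ± 8.54 TPM with vehicle and 49.7 ± 13.2 TPM with dDAVP (SD, n = 3 each). Erbb2 averaged 125.2 ± 11.8 and 119.98 ± 28.5 TPM, and Erbb3 80.6 ± 9.25 and 64.4 ± 13.6 TPM. Errfi1 averaged 223.8 ± 22.1 and 216.1 ± 14.6 TPM. Their changes were -0.11, -0.08, -0.33 and -0.05 with adjusted p of 0.725, 0.746, 0.192 and 0.745. Without dDAVP replicate 2, Erbb3 passed (-0.49, adjusted p = 0.0432). The values of Egfr, Erbb2 and Errfi1 turned positive under median-ratio scaling (0.06, 0.09 and 0.12). The principal cell markers, which include Aqp2, summed to 951.4 to 1042 TPM with vehicle and 3896 to 4344 TPM with dDAVP. Their part in these results was not tested. In such bulk libraries, a change in the share of cells that express a gene and a change in RNA per cell cannot be told apart.

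**Figure D2:**
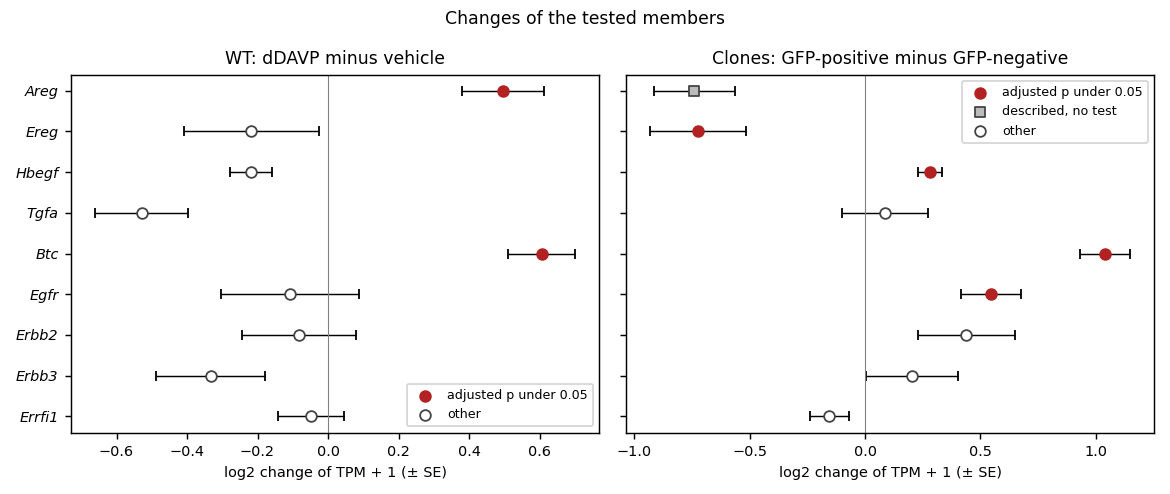
Change in log2(TPM + 1) with its SE (x axes) for the 9 tested members (y axis), dDAVP minus vehicle in WT cells (left) and GFP-positive minus GFP-negative with the clone as a covariate (right); filled points have an adjusted p under 0.05, and the square marks Areg in the right panel, which is described without a test. Areg lies at 0.50 in the left panel and at -0.74 in the right one, and Btc is positive in both (0.61 and 1.04).

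Within the dDAVP-treated reporter lines, GFP-positive cells carried more Btc, Hbegf and Egfr transcript and, over the clones together, less Ereg transcript than GFP-negative cells. These were 4 of the 8 members tested other than Areg, where 35.3% of all 13113 genes were called (12.1% higher and 23.2% lower). With the clone means as the replicates, and in the libraries with more or with fewer genes detected, the call of Btc held and those of Hbegf, Egfr and Ereg were lost. In C11 the mean of Ereg ran the other way (3.47 against 2.94 TPM). Tgfa, Erbb2, Erbb3 and Errfi1 were not called. The 2 fractions share no library with the WT comparison. Called genes were 34.2% higher on the TPM scale and 51.1% higher after median-ratio scaling, and each of the 4 called members held its sign and its call under both scalings.

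Btc was the most strongly raised member. It was 18.04 and 18.51 TPM in GFP-negative and 38.28 and 30.23 TPM in GFP-positive C1 cells, and 44.26 and 43.04 against 63.62 and 72.09 TPM in C11. In C43 it was 18.62 and 22.76 against 45.65 and 51.75 TPM, and in C50 it was 20.13 and 20.71 against 56.64 and 60.77 TPM. The fractions did not overlap in any of the 4 clones, a separation that 53.5% to 61% of all genes showed within a single clone. The ratio of mean TPM ran from 1.55 in C11 through 1.87 in C1 and 2.35 in C43 to 2.88 in C50. Over all clones the change was 1.04 (SE 0.109, adjusted p = 5.76e-06). Btc was called within each clone (changes of 0.86, 0.62, 1.20 and 1.48 with adjusted p = 0.00370, 0.0224, 0.000254 and 4.05e-05 in C1, C11, C43 and C50). The call in C11 was lost in 6 of 23 alternatives and that in C1 in 1 of 23. Over all clones, Btc was also called in each set of libraries taken by genes detected.

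Hbegf rose by less. It was 534.6 and 505.6 TPM in GFP-negative and 727.9 and 653.8 TPM in GFP-positive C1 cells, and 498.8 and 554.5 against 556.1 and 595.6 TPM in C11. In C43 it was 475.2 and 466.7 against 526.8 and 589.4 TPM, and in C50 it was 473.8 and 480.9 against 604.6 and 605.7 TPM. The fractions were separate in each clone, narrowly so in C11, as they were for 53.5% to 61% of all genes within a single clone. The change over all clones was 0.28 (SE 0.0522, adjusted p = 0.000755). It was lost in the libraries with more and with fewer genes detected (0.18 and 0.40, adjusted p = 0.153 and 0.104) and with clone means (adjusted p = 0.0592). Within a clone it was called in C1 (0.41, adjusted p = 0.0173) and C50 (0.34, adjusted p = 0.0160). Because Hbegf is so abundant, its gain of 170.7 TPM in C1 outweighed the gain of 15.98 TPM in Btc there. Tgfa was not called, with 20.84 and 24.19 against 21.47 and 24.89 TPM in C1 and 25.08 and 27.66 against 20.31 and 22.73 TPM in C11. Its overall value was 0.09 (adjusted p = 0.762), and -0.11 without the GFP-negative C50 library that stood apart, where Tgfa was 7.22 TPM.

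Areg was chosen with its dependence on the clone already known, so its levels by clone and fraction are given as a description without a test. In C1 it was 40.95 and 39.22 TPM in GFP-negative cells and 13.06 and 13.86 TPM in GFP-positive cells, a ratio of 2.98. In C43 it was 19.29 and 19.61 against 8.94 and 9.83 TPM, a ratio of 2.07, and in C50 it was 18.4 and 15.46 against 9.74 and 11.0 TPM, a ratio of 1.63. GFP-negative cells were thus above GFP-positive cells in both libraries of these 3 clones. In C11 the order was the opposite, with 12.77 and 12.72 TPM in GFP-negative and 15.33 and 13.92 TPM in GFP-positive cells, and again no overlap. Within a single clone, 53.5% to 61% of all genes likewise had no overlap. The log2 changes of Areg were -1.51, 0.18, -0.98 and -0.65 in C1, C11, C43 and C50. Over the clones together the log2 change was -0.74, and without clone C1 it was -0.48. In the libraries with more and with fewer genes detected it was -0.35 and -1.15. The first set holds no GFP-negative C1 library and the second no GFP-negative C11 library, so the 2 values rest on different clones.

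Ordered by mean over the 10 groups, Areg was highest in GFP-negative C1 cells (40.1 ± 1.22 TPM, n = 2). C43 GFP-negative (19.5 TPM), WT dDAVP (17.9 TPM) and C50 GFP-negative cells (16.9 TPM) followed, and neighbours in this order overlapped. Below these came C11 GFP-positive (14.6 TPM), C1 GFP-positive (13.5 TPM), C11 GFP-negative (12.7 TPM) and WT vehicle (12.4 TPM), and then C50 and C43 GFP-positive cells (10.4 and 9.39 TPM). The highest group was 4.27 times the lowest. GFP-positive libraries spanned 8.94 to 15.33 TPM and GFP-negative libraries 12.72 to 40.95 TPM, or 12.72 to 19.61 TPM without the C1 libraries. WT and clone libraries are set side by side without a test, since clone and sorting cannot be told apart there.

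Ereg, the gene next to Areg, had a similar pattern at a lower level. It was 15.16 and 14.83 TPM in GFP-negative and 5.53 and 5.21 TPM in GFP-positive C1 cells, and 5.85 and 5.16 against 2.51 and 1.07 TPM in C43. In C50 it was 4.98 and 6.51 against 3.07 and 4.58 TPM, and in C11, where the fractions overlapped, it was 2.33 and 3.56 against 3.12 and 3.82 TPM. The GFP-negative C1 libraries again stood highest, 2.79 times the GFP-positive ones. Ereg was called within C1 (-1.33, SE 0.275, adjusted p = 0.0131) and C43 (-1.27, adjusted p = 0.00932) but not within C50 (-0.49, adjusted p = 0.208) or C11 (0.19, adjusted p = 0.778). Pooled, the change was -0.72 (SE 0.207, adjusted p = 0.0131), lost without clone C1 (-0.52, adjusted p = 0.141), without clone C43 (-0.54, adjusted p = 0.104) and with clone means (adjusted p = 0.110). In the libraries with more and with fewer genes detected it was -0.39 and -1.16 (adjusted p = 0.279 and 0.0879), with the same difference in clones as for Areg. Over the 10 group means, Areg correlated with Ereg at r = 0.89 and with Btc at r = -0.67 on the log2 scale, given as a description of groups that share a cell line and, in part, a clone.

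**Figure D3:**
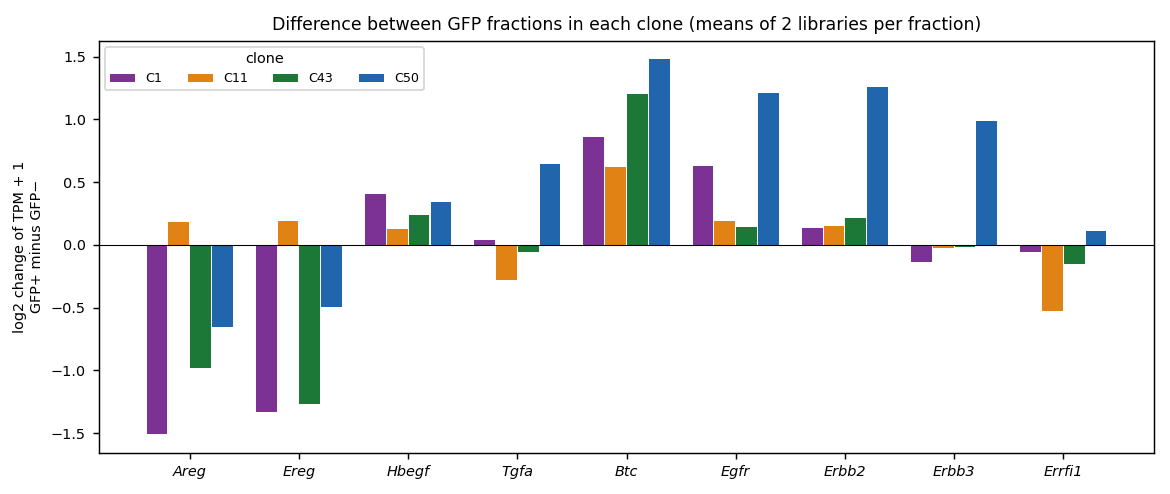
Difference in log2(TPM + 1) between GFP-positive and GFP-negative cells (y axis) for the 9 tested members (x axis) in clones C1, C11, C43 and C50; each bar is a difference of means of 2 libraries per fraction. The C11 bar for Areg is positive (0.18) while those of C1, C43 and C50 are negative (-1.51, -0.98 and -0.65), and the Btc bars are positive in each clone.

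Within single clones, 4 of the 8 members tested (Areg was left out) were called for clone C1, 2 for C11, 2 for C43 and 4 for C50. The shares of all genes called were 7.22%, 7.94%, 16.3% and 26.6%, and the 2 fractions did not overlap for 54.8%, 61%, 60.4% and 53.5% of genes. Btc in C43 and C50 and Egfr in C50 stayed called with each library left out in turn. Ereg in C1 and Btc in C11 were lost without any of their clone's 4 libraries (adjusted p = 0.0646 to 0.0975 and 0.0809 to 0.183). Ereg in C43 was lost without GFP-negative replicate 1 or GFP-positive replicate 2 (adjusted p = 0.0793 and 0.0762), and Btc in C1 without GFP-positive replicate 1 (adjusted p = 0.0545). Hbegf in C1 was lost without either GFP-negative library or GFP-positive replicate 1, Egfr in C1 without either GFP-positive library or GFP-negative replicate 1, and Hbegf and Erbb2 in C50 without either GFP-positive library, Erbb2 also without GFP-negative replicate 1. Errfi1 in C11 was lost without either GFP-negative library or GFP-positive replicate 1. Median-ratio scaling also ended the calls of Hbegf in C1 (0.49, adjusted p = 0.0548) and in C50 (0.24, adjusted p = 0.207) and that of Errfi1 in C11 (-0.38, adjusted p = 0.0752).

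Whether the GFP difference itself varied with the clone was tested as an interaction in limma, and 0 of the 8 members were called, where 114 genes (0.869%) were. Before adjustment 4 members passed 0.05, namely Ereg, Btc, Egfr and Errfi1, as did 12.9% of all genes. Their adjusted p were 0.195, 0.195, 0.0648 and 0.281. The number of members called depended on the GFP-negative C50 libraries: without replicate 1 it was 1 (Egfr, adjusted p = 0.0385), where 2.49% of all genes were called. Without replicate 2, which leaves the library that stood apart alone in its group, it was 7, where 38.6% of all genes were called. With the fraction as a term of the model, levels differed between clones for Ereg (adjusted p = 0.0108) and Btc (adjusted p = 0.000676), 2 of the 8 members, where 28% of all genes were called. In both fractions Ereg was highest in C1, and Btc was highest in C11 and lowest in C1. Without GFP-negative C50 replicate 1 the count of members that differed between clones was 5, where 44.8% of all genes were called.

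Among the receptors, Egfr was higher in GFP-positive cells. It was 47.36 and 53.86 against 80.34 and 77.25 TPM in C1, and 51.21 and 54.17 against 56.12 and 64.71 TPM in C11. In C43 it was 44.68 and 51.1 against 54.8 and 51.04 TPM, and in C50 it was 28.03 and 36.85 against 75.31 and 76.39 TPM. The fractions overlapped only in C43, where 53.5% to 61% of all genes had no overlap within a single clone. The pooled change was 0.54 (SE 0.131, adjusted p = 0.00465), and it was called within C1 (0.63, adjusted p = 0.0198) and C50 (1.21, adjusted p = 0.000136). Without GFP-negative C50 replicate 1 the pooled and C50 values were 0.45 (adjusted p = 0.00269) and 1.02 (adjusted p = 0.000272). The pooled call was lost with clone means (adjusted p = 0.0859) and in the libraries with more or with fewer genes detected (0.43 and 0.68, adjusted p = 0.117 and 0.212).

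Erbb2, the shared partner receptor, was 70.9 and 101.8 against 94.76 and 92.13 TPM in C1, and 112.5 and 137.9 against 125.7 and 153.0 TPM in C11. In C43 it was 88.27 and 104.4 against 111.8 and 110.8 TPM, and in C50 it was 32.86 and 100.1 against 152.6 and 126.0 TPM. The value of 32.86 TPM was the lowest of all 22 libraries and came from the GFP-negative C50 library that stood apart. Erbb2 was called within C50 (1.26, adjusted p = 0.0307), but not without that library (0.47, adjusted p = 0.151). Pooled, its change was 0.44 (SE 0.209, adjusted p = 0.121), which passed the threshold after median-ratio scaling (0.52, adjusted p = 0.0219), quantile normalization (0.49, adjusted p = 0.0311) and correction for length and GC content (0.51, adjusted p = 0.00119). Without the library that stood apart the pooled value was 0.22 (adjusted p = 0.0530), and without clone C50 it was 0.17 (adjusted p = 0.176). Erbb3 was 20.83 TPM in the same library and 57.06 TPM in the other GFP-negative C50 library, against 78.1 and 61.9 TPM in GFP-positive C50 cells. Elsewhere its fractions overlapped, and its pooled change was 0.20 (adjusted p = 0.475), or 0.0040 without that library. Erbb3 averaged 42.6 ± 8.73 and 38.3 ± 1.80 TPM in GFP-negative and GFP-positive C1 cells and 38.9 ± 25.6 TPM in GFP-negative C50 cells (SD, n = 2), and its difference between clones was not called (adjusted p = 0.154) except without the library that stood apart (adjusted p = 0.00128), after quantile normalization (0.0441) and after the length and GC correction (0.00808). Of the summed receptor TPM, Erbb2 made up 40.2% to 52.7% (44.1% at the lowest without the library that stood apart) and Egfr 18.1% to 37.4%, the latter highest in GFP-positive C1 cells.

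Errfi1 was called within 1 clone, C11. It was 238.3 and 235.5 TPM in GFP-negative and 151.1 and 177.9 TPM in GFP-positive C11 cells, a fall of 0.53 on the log2 scale (SE 0.122, adjusted p = 0.0222). In C50 it was 205.1 and 254.4 against 252.2 and 240.5 TPM, with overlap. C1 (183.9 and 184.2 against 189.2 and 166.2 TPM) overlapped too, and C43 (191.9 and 208.4 against 172.9 and 187.5 TPM) separated without being called (-0.15, adjusted p = 0.454). Pooled, the change was -0.16 (adjusted p = 0.172), and -0.21 (adjusted p = 0.0270) without GFP-negative C50 replicate 1. It passed in 2 of 32 alternatives, over which it ran from -0.33 to 0.059. The difference between clones in this change was not called (adjusted p = 0.281).

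**Figure D4:**
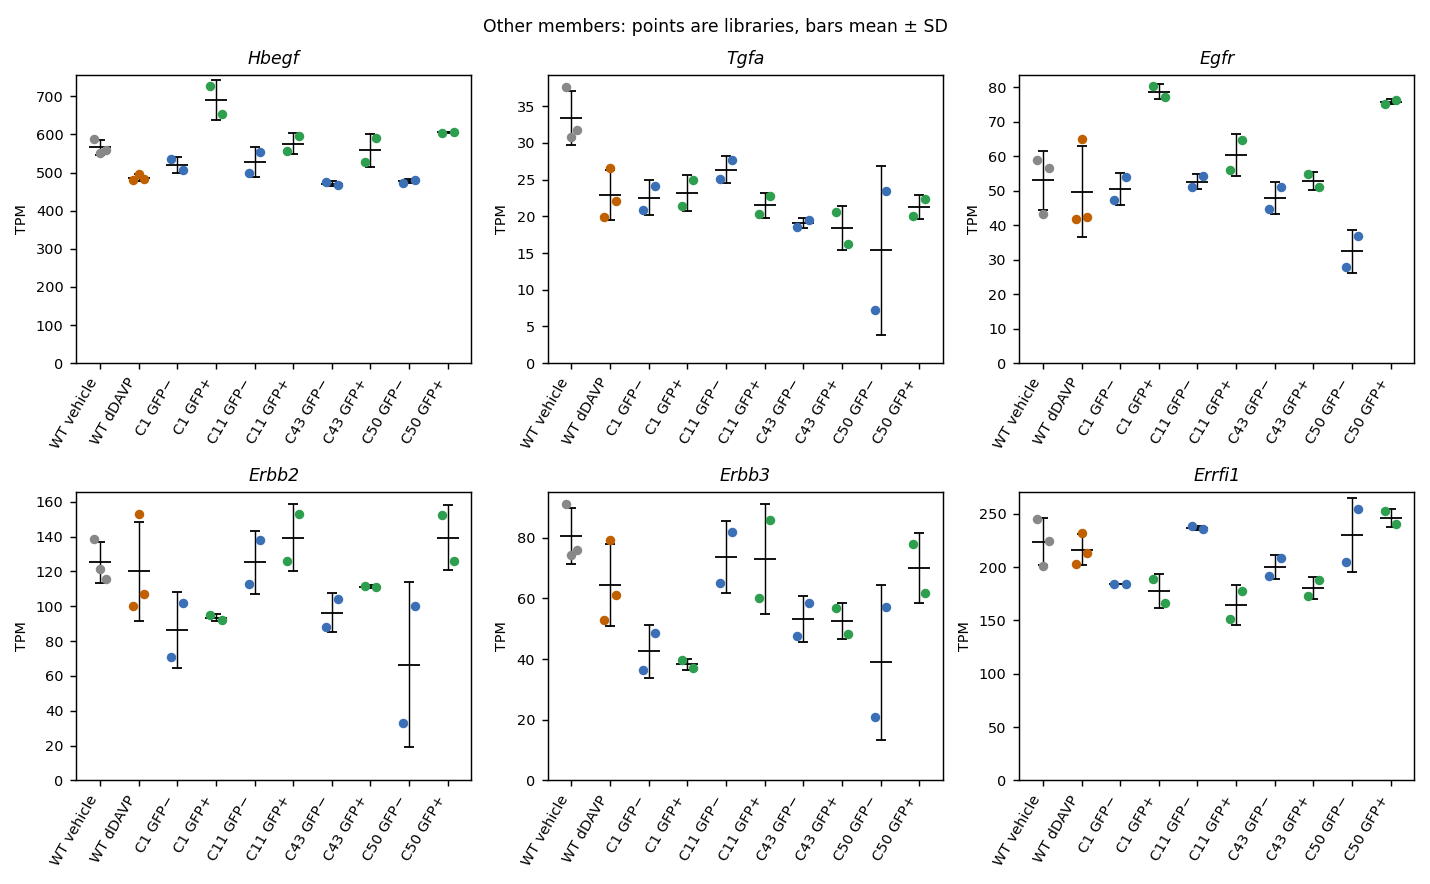
TPM of Hbegf, Tgfa, Egfr, Erbb2, Erbb3 and Errfi1 (y axes, each from 0) in every library of the 10 groups (x axis); points are libraries, horizontal bars are group means and whiskers are SD (n = 3 for WT, n = 2 otherwise). GFP-negative C50 cells show the widest spread for Tgfa, Erbb2 and Erbb3, where replicate 1 holds 7.22, 32.86 and 20.83 TPM.

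Areg exceeded Btc only in GFP-negative cells, in both C1 libraries and in 1 of the 2 C43 libraries. The ratio of Areg to Btc TPM was 2.19 ± 0.107 in GFP-negative C1 cells, 0.949 ± 0.123 in GFP-negative C43 and 0.830 ± 0.118 in GFP-negative C50 cells (SD, n = 2). In the GFP-positive fractions of these clones it was 0.400, 0.193 and 0.176. C11 had low ratios in both fractions, 0.292 when GFP-negative and 0.217 when GFP-positive. In WT cells the ratio overlapped between treatments, 0.430 ± 0.00230 with vehicle and 0.407 ± 0.0691 with dDAVP (SD, n = 3). As a share of summed ligand TPM, Areg reached 6.51% in GFP-negative C1 cells and 1.40% to 3.67% in the other clone libraries. Btc ran from 2.97% in GFP-negative C1 to 9.92% in GFP-positive C11 cells.

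**Figure D5:**
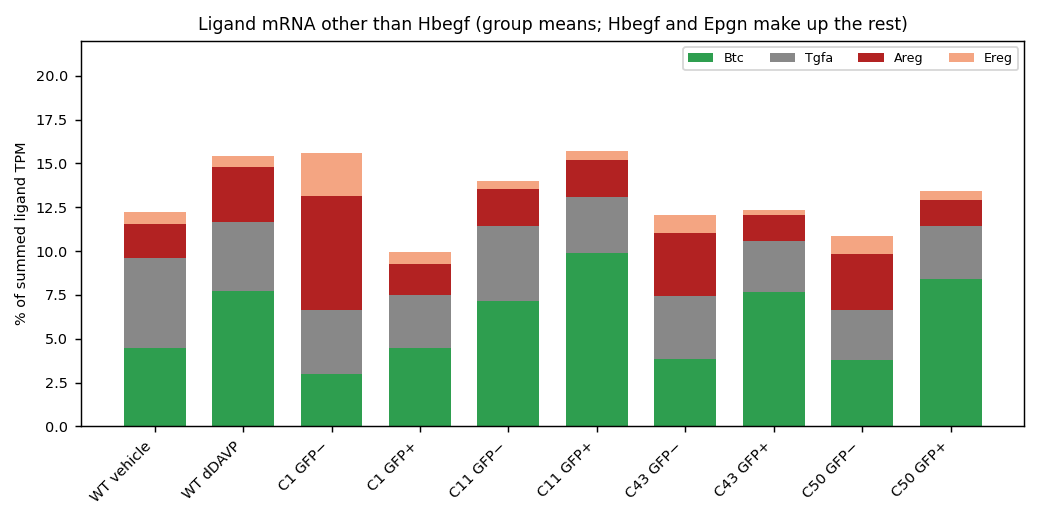
Share of the summed TPM of the 6 ligands (y axis, percent, from 0) taken by Btc, Tgfa, Areg and Ereg in each of the 10 groups (x axis), as stacked group means without error bars. Hbegf and Epgn make up the rest; the Areg band is widest in GFP-negative C1 cells (6.51%) and the Btc band in GFP-positive C11 cells (9.92%).

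Of 58 further genes of the pathway, 53 were tested for dDAVP in WT cells, and 3 were called lower and 0 higher. That is 5.66% called, against 8.88% of all genes (6.51% lower). The median change was -0.22, against -0.16 over all genes. The 3 were Adam15, a membrane protease (73.6 ± 7.76 TPM with vehicle, 49.9 ± 1.72 TPM with dDAVP, change -0.55, adjusted p = 0.0171), Plcg1, a phospholipase recruited by the receptors (-0.63, adjusted p = 0.0381), and Lrig2 (-0.51, adjusted p = 0.0471). Over 16 alternatives, the call was lost in 6 for Adam15, 11 for Plcg1 and 12 for Lrig2. None of the 12 tested genes of ERK output was called. Between GFP fractions 52 were tested. Of these 3, Adam12, Etv4 and Etv5, reached the mean of 1 TPM needed for testing only through GFP-negative cells and averaged under 1 TPM in GFP-positive cells, so their values are a description. Among the 49 with a mean of at least 1 TPM in both fractions, a limit chosen after seeing the data, 5 were called higher and 11 lower (32.7%, with a median change of -0.06), beside 35.6% of the 12496 genes that meet the same limit (12.2% higher and 23.3% lower).

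Of 10 genes of ERK output with at least 1 TPM in both fractions, 3 were lower and 1 higher (40% called, against 35.6%). Differences between the lists were not tested. Ccnd1, which encodes cyclin D1, was 10.95 to 24.37 TPM with a median of 20.4 TPM in the 8 GFP-negative libraries and 0.64 to 2.55 TPM with a median of 0.92 TPM in the GFP-positive ones, without overlap (-3.23, SE 0.152, adjusted p = 3.53e-09). Dusp4 (-0.82) and Fosl1 (-0.76) fell as well, with adjusted p of 0.0222 and 9.37e-05. The transcription factor genes Etv4 and Etv5, outside these 10, averaged 5.04 and 1.75 TPM in GFP-negative and 0.058 and 0.355 TPM in GFP-positive libraries. Dusp6, the ERK phosphatase that is also a feedback gene, was slightly higher (0.21, adjusted p = 0.0307). Over 32 alternatives, the call was lost in 14 for Dusp6, in 8 for Dusp4, in 1 for Fosl1 and in 0 for Ccnd1. Spry2, Phlda1, Epha2 and Epha4 were among those not called.

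Of 8 shedding genes with at least 1 TPM in both fractions, 2 fell and 0 rose (25% called, against 35.6%). They were Adam8 (-0.81, adjusted p = 0.00747) and Rhbdf1, an inactive rhomboid that helps carry ADAM17 to the surface (-0.58, adjusted p = 0.0141). Adam8 lay near the limit, with medians of 2.005 TPM in GFP-negative and 0.995 TPM in GFP-positive libraries. It was highest in GFP-negative C1 cells (10.8 TPM). The call of Adam8 was lost in 4 of 31 alternatives and that of Rhbdf1 in 4 of 32. Adam12, outside these 8, was 1.63 to 6.55 TPM in GFP-negative and 0.05 to 0.76 TPM in GFP-positive libraries. Adam17 and Adam10, the main ligand sheddases, were not called, at 12.58 to 42.32 against 12.56 to 32.93 TPM and 6.72 to 38.48 against 14.29 to 36.79 TPM. Nrg1, a ligand of ERBB3, fell from a median of 13.2 to 6.94 TPM (-0.88, adjusted p = 2.44e-05, lost in 1 of 32 alternatives) and, like Areg and Ereg, was highest in GFP-negative C1 cells (25.4 TPM).

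Of the 18 adaptor and ERK cascade genes, 4 fell and 1 rose (27.8% called, against 35.6%). Among them, Ptpn11, which encodes the phosphatase SHP2, fell by 0.82 (adjusted p = 3.01e-06), Hras by 0.34 (adjusted p = 0.00605) and Map2k2 by 0.31 (adjusted p = 0.000322). Araf rose by 0.26 (adjusted p = 0.0121). Of 11 tested genes of receptor turnover, 3 rose and 1 fell (36.4% called, against 35.6%). Cblc and Cblb, ubiquitin ligases of the receptors, rose by 0.47 (adjusted p = 0.000108) and 0.72 (adjusted p = 0.0278), and Ptpn1, a phosphatase acting on EGFR, rose by 0.27 (adjusted p = 0.0186), while Socs5 fell by 0.76 (adjusted p = 0.000263). Over 32 alternatives, the call was lost in 10 for Cblb, in 6 each for Hras and Ptpn1, in 4 for Araf, in 2 for Map2k2, and in 1 each for Ptpn11, Cblc and Socs5. Cblb was 1.52 TPM in the GFP-negative C50 library that stood apart, and its change was 0.47 (adjusted p = 0.00104) without it.

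Beside these differences, the principal cell marker sum was higher in GFP-positive than in GFP-negative cells of each clone, for example 619.6 to 637.5 against 3161 to 3224 TPM in C1 and 913.2 to 954.2 against 4530 to 4728 TPM in C11. The sum includes Aqp2, which averaged 796.4 TPM in GFP-negative and 4156 TPM in GFP-positive libraries. The reporter was used to study Aqp2, so the rise of this sum is no independent result. The other markers of this list were not compared by fraction one by one. The intercalated cell list summed to 58.2 to 71.9 against 98.2 to 112.7 TPM in C1 and 22.02 to 32.14 against 72.4 to 96.7 TPM in C50, and overlapped in C11 (44.3 to 74.7 against 61.5 to 83.9 TPM) and C43 (30.9 to 59.2 against 47.1 to 88.5 TPM), and its defining genes Slc4a1, Slc26a4 and Foxi1 stayed at or under 0.48 TPM. The leukocyte list, carried by Csf1r, was lower in GFP-positive cells without overlap in each clone: 12.9 to 13.1 against 10.5 to 11.2 TPM in C1, 20.2 to 22 against 14.0 to 14.4 TPM in C11, 18.6 to 22.04 against 10.9 to 12.5 TPM in C43 and 11.6 to 17.6 against 8.0 to 11.3 TPM in C50. The proximal tubule list, carried by Lrp2, summed to 0.94 to 1.96 against 3.96 to 4.02 TPM in C1 and 5.27 to 7.55 against 8.25 to 12.9 TPM in C50, and overlapped in C11 and C43. In WT cells it was 10.3 to 15.9 TPM with vehicle and 5.17 to 8.63 TPM with dDAVP. The other defining genes of these 2 lists averaged under 1 TPM. The part of these marker lists in the results for the members was not tested.

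The genes whose group means most resembled Areg, by Pearson correlation of log2(TPM + 1) over the 10 groups among 4030 genes with a mean of at least 5 TPM and a range of at least 1, were Nfkbie (r = 0.93), Plekhf1 (r = 0.93) and Orai1 (r = 0.91). For Ereg they were Ccdc85b (r = 0.94), Cdkl2 (r = 0.93) and Dbr1 (r = 0.92). In each case GFP-negative C1 cells were highest. Nfkbie averaged 16.4 TPM there against 3.35 to 8.13 TPM in the other libraries, and Orai1 averaged 63.1 TPM against 18.3 to 37.6 TPM. This is a description over 10 groups of 1 cell line.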

How the data were processed

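Total RNA of 22 libraries was amplified as full-length cDNA (SMART-Seq HT), tagmented (Nextera XT) and sequenced as paired ends, per the labels' protocols. The deposited table holds TPM per gene and library, made by the authors with STAR and RSEM, per the submitters' processing notes; versions, genome build and annotation are not given in the sources used here. It also holds the authors' group means in TPM, a ratio column per contrast and a maximum signal column; the deposited ratio and signal columns were not used. Every column of per-library values was matched to a library by its name. Lines sharing a symbol (79 symbols) were summed, which left 54514 entries; each member had 1 line. No pair of libraries held identical values. TPM keeps no depth, so no counting interval can be given.

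Changes are differences in log2(TPM + 1), which understate those of low genes. They were tested with limma 3.58.1 (R 4.3.3) with a mean-variance trend over all genes with a mean of at least 1 TPM in the libraries fitted, and Benjamini-Hochberg adjusted over all of them; genes under 0.05 are called. WT libraries were fitted alone, and the 16 clone libraries with clone as a covariate, as a mean per clone and fraction, or with an interaction. The fits were tested on simulated data. Alternatives were other pseudocounts, filters, scalings, a replicate block, no trend, sets of libraries by genes detected, clone means, and each library or clone left out; a correction for length and GC content of the longest annotated transcript was chosen after seeing the data. Promoters came from RefSeq and coding stretches from GENCODE M21, read with Biopython 1.88. The promoters of Hbegf, Ereg and Erbb3 were not examined. Named genes are all members, pathway genes from fixed lists with called genes first by size, and the 3 genes most like Areg and Ereg. The members and lists were chosen with earlier results of these data known, and a pattern already seen there is no independent support. The values of 1 pathway gene are not reported here.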

Additional observations from a re-analysis of the deposited data

Results flagged for a closer look

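In Areg, the difference between GFP fractions had opposite signs in different clones. Both GFP-positive libraries were higher than both GFP-negative libraries in C11, and both were lower in C1, C43 and C50. The fractions did not overlap for 54.8%, 61%, 60.4% and 53.5% of all genes tested in C1, C11, C43 and C50. The log2 change in C11 exceeded that in C1 by 1.69, that in C43 by 1.16 and that in C50 by 0.84. The difference was not tested, because Areg was chosen with its dependence on the clone known, and each fraction of a clone has 2 libraries. With 2 or 3 libraries in a group, no single library could be judged an outlier within its group.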

How the results depend on the processing

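Of the counts of members called, that for dDAVP in WT cells (2) was the least settled. It was 1 with all genes above 0 TPM tested, 1 without a trend, 4 with the number of genes detected as a covariate, 0 in the libraries with more genes detected, and 0 to 4 with 1 library left out. The replicate block brought it to 0, and all genes called from 1198 to 122. The labels do not say whether the numbers pair the samples. The deviations of same-numbered WT libraries from their group means correlated at -0.21, -0.025 and -0.11, and none correlated best with its own number. In the clones the correlations were 0.058, -0.017, 0.21 and 0.083 (C1, C11, C43 and C50). With so few libraries per group, these values cannot settle the pairing. Over all genes the other WT counts that differed most were 442, 691, 2694 and 101 under the same settings, and 314 to 2038 with 1 library left out. The libraries with fewer genes detected could not be fitted for WT, with 1 per group. Uncalled WT members changed sign. Under median-ratio scaling Egfr was 0.060, Erbb2 0.088 and Errfi1 0.12, Egfr was 0.036 under quantile normalization and 0.056 in the libraries with more genes detected, and the length and GC correction gave 0.24, 0.21 and 0.094. With 1 library left out they ran from -0.31 to 0.0011 (Egfr), -0.27 to 0.035 (Erbb2) and -0.12 to 0.021 (Errfi1).

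Between GFP fractions, the count of 4 (Areg left out) became 1 in the libraries with more genes detected and 1 in those with fewer (250 genes in all called, against 4626). It was 3 without clone C1 and 1 with clone means (2406 genes). The replicate block left it unchanged. Over the 32 alternatives, all genes called ran from 250 to 6043. Within clones the block ended the calls of Egfr in C1 (adjusted p = 0.0601) and of Btc and Errfi1 in C11 (0.0585 and 0.0655). Uncalled Tgfa was -0.12 and Erbb3 -0.0024 in the libraries with more genes detected, Errfi1 was 0.059 in those with fewer, Tgfa and Erbb3 were -0.099 and -0.058 without clone C50, and Tgfa ran from -0.11 to 0.18 with 1 library left out. Within clones, 12 calls, beside 7.22% to 26.6% of all genes in a clone, became 6 with all genes above 0 TPM tested. The share of all genes called under that setting was not tallied. The interaction count of 0 became 1 under median-ratio scaling, 1 under quantile normalization and 1 after correction for length and GC (1.2%, 1.81% and 2.08% of all genes called), and 0 to 7 with 1 library left out (0.319% to 38.6%). The count of 2 between clones became 5 after the length and GC correction (36.7% of all genes), and 2 to 5 with 1 library left out (20.9% to 44.8%). Where leaving out a library left 1 in its group, that library was assumed to vary like the others. The cause of these shifts was not tested. Of 1721 values of single genes under the alternatives, 1511 kept their side of the threshold and, where they had one, their direction. Another 17 changed sign, all in uncalled members. Adjusted p of the interaction and of the differences between clones have no direction. TPM without depth limits what can be said of low genes such as Epgn.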
